A study of Homo sapiens with 6 samples.

Results

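The splicing factor genes of TE1 cells were examined here, a set of 59 genes among the 12180 genes of the deposited gene table. Members were chosen by name alone: 11 SRSF genes, 21 HNRNP genes, 11 SNRP genes, 9 SF3A and SF3B genes, 4 U2AF genes and 3 PTBP genes, leaving out names that join neighbouring genes by a hyphen. The same names account for 236 of the 33090 transcripts of the transcript table. TE1 (TE-1 in the labels) is a human esophageal squamous cell carcinoma (ESCC) line. The study set 3 control libraries against 3 libraries of cells that overexpress FGL1, a secreted fibrinogen-like protein, to look for genes that respond to it. The control cells, called NC, carried a lentivirus with random nonsense sequences and are given the genotype WT in the labels. The FGL1-OE cells carried a lentivirus with FGL1. The study describes puromycin selection for its stable lines with altered FGL1 and does not say whether the NC cells were selected. No label says that the libraries of a group came from separate transductions or cultures, so all p-values measure the spread between these libraries, which may be technical. The values are FPKM, a read number scaled for transcript length and for library depth. Levels can be compared between genes only roughly, since gene values and sums of transcripts differed for some members.

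Splicing removes introns from pre-mRNA in the spliceosome, which is built on small nuclear ribonucleoproteins (snRNPs). SR proteins, encoded by the SRSF genes, bind exonic sequences and help to recruit the machinery, whereas many hnRNP proteins and the polypyrimidine tract binding proteins (PTBP) bind pre-mRNA and often keep exons out. The SNRP genes encode the Sm ring shared by most snRNPs and particular proteins of the U1 and U2 particles. The U2AF proteins mark the 3′ splice site and the SF3A and SF3B proteins hold the U2 snRNP at the branch point. Since these genes also use alternative exons in their own transcripts, both the gene level and the make-up of transcripts were examined.

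FGL1 had 0.0202, 0 and 0.106 FPKM in NC 1 to NC 3 and 33.55, 39.35 and 39.92 FPKM in FGL1-OE 1 to FGL1-OE 3, as the labels say. Of the 8 squamous epithelial markers 7 were listed, led by SFN and KRT6A, while KRT14 was not listed and TP63 stayed between 0.299 and 0.779 FPKM. Leukocyte and fibroblast markers had 1 of 3 genes listed each and endothelial markers 0 of 3. The listed FPKM of all genes summed to between 210904 and 226307 per library. Across all genes tested, the correlation of log2(FPKM + 1) between libraries was lowest for NC 1 against NC 2 (0.885) and highest for FGL1-OE 2 against FGL1-OE 3 (0.986), so that the control libraries stood further apart than the FGL1-OE libraries. The files hold no read counts, and the low values showed no step worth a whole read, so the depth of the libraries is unknown. In RNA of bulk cells, fewer cells with a transcript and less of it per cell cannot be told apart.

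All 59 member genes passed the filter, which asked for 0.5 FPKM or more as the mean of the 6 libraries. Their mean levels ran from 0.679 FPKM for PTBP2 to 200.1 FPKM for SNRPB, with a median of 33.95 FPKM against 5.80 FPKM over all genes tested. In total 0 of the 59 member genes passed an adjusted p of 0.05 in limma after Benjamini-Hochberg adjustment over all 12017 genes tested, of which 0.00832% were called, FGL1 alone. At an unadjusted p under 0.05 in limma, 0 members were called higher (background 1.21%) and 0 lower (background 0.807%), against 2.01% of all genes in either direction, while an ordinary linear model called 4 (6.78%), HNRNPL, HNRNPUL1, SF3B3 and U2AF1, against 3.11% of all genes. The smallest unadjusted p among members was 0.065 (limma), for U2AF1. Differences between the groups were small beside the spread of the libraries, as in the whole table. For 45 of 59 members the log2 fold change was smaller than its standard error, as it was for 9049 of 12017 genes tested. It exceeded 0.5 in size for 1 member, U2AF1L5, and for 340 of all genes tested. In simulated data of this size 89.5% of genes changed by 2 on the log2 scale and 38.5% of those changed by 1 were recovered, and smaller changes were not simulated.

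The log2 fold change, the FGL1-OE minus the NC mean of log2(FPKM + 1), was above 0 for 40 of 59 members (67.8%), against 53.7% of all genes, and its median was 0.08 against 0.02 for all genes. In 7 member genes (11.9%) the lowest FGL1-OE library exceeded the highest NC library, against 4.09% of all genes, and in 0 members the order was the reverse, against 3.06% of all genes (7.15% in either direction). These 7 were HNRNPUL1, HNRNPL, SRSF6, SF3A3, SNRPF, SF3B3 and U2AF1, with log2 fold changes between 0.09 and 0.34. Without NC 2 the groups did not overlap for 24 of 59 members higher and 8 lower in FGL1-OE, when the same held for 21.6% and 21.2% of all genes. Leaving out a library can only keep or add such genes, so these counts cannot test the 7.

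**Figure D1:**
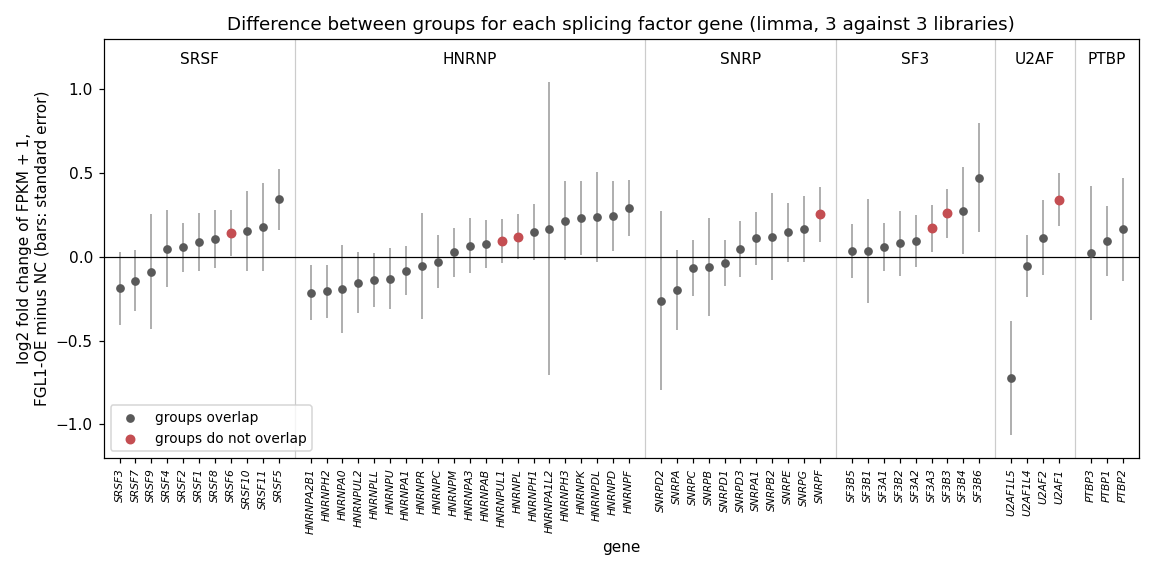
Log2 fold change of FPKM + 1 (vertical axis, FGL1-OE minus NC) for each of the 59 member genes, ordered by size within each family. Points are limma estimates, bars are standard errors, and the 7 red points are genes whose groups do not overlap; the bars of 45 genes cross 0, and U2AF1L5 lies furthest from it at -0.72.

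The SR protein genes varied from 5.54 FPKM to 80.3 FPKM on average. SRSF9, the most abundant of them, had 117.8, 44.2 and 95.4 FPKM in NC and 65.4, 79.0 and 80.1 FPKM in FGL1-OE. All FGL1-OE libraries lay inside the control range, and the log2 fold change was -0.09 ± 0.34 (SE, n = 3 per group; exact permutation p = 0.9). This value turned to 0.19 without NC 1, 0.04 without NC 3, 0.005 without FGL1-OE 1 and 0.012 with sums of the transcript table. SRSF5, another SR protein gene, had 17.8, 25.3 and 17.5 FPKM in NC and 24.8, 27.4 and 24.3 FPKM in FGL1-OE. NC 1 and NC 3 were below every FGL1-OE library and NC 2 was among them, which gave the largest log2 difference of the family (0.34 ± 0.18, SE). SRSF6 had 60.2, 65.8 and 66.4 FPKM in NC and 67.5, 73.0 and 71.7 FPKM in FGL1-OE, so the groups did not overlap but their nearest libraries differed by little (log2 fold change 0.14 ± 0.14, SE; exact permutation p = 0.1, the smallest that 3 against 3 libraries allow). Of the 11 SRSF genes 8 had a log2 fold change above 0, with a median of 0.09 and a range from -0.19 for SRSF3 to 0.34 for SRSF5. The family summed to 393 ± 22.1 FPKM in NC and 390 ± 21.6 FPKM in FGL1-OE (SD, n = 3 each).

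Among the snRNP genes, SNRPB, which encodes the SmB and SmB′ proteins, was the most abundant, with 279.8, 125.3 and 222.3 FPKM in NC and 216.7, 170.5 and 185.9 FPKM in FGL1-OE. The spread of the control libraries took in all the FGL1-OE libraries (log2 fold change -0.06 ± 0.29, SE), and the difference turned to 0.26 with sums of the transcript table, 0.19 without NC 1 and about 0.02 without NC 3 or FGL1-OE 2. SNRPD2, the gene of SmD2, had 18.4, 54.7 and 73.4 FPKM in NC and 47.7, 45.4 and 19.7 FPKM in FGL1-OE. Each group held a library near 20 FPKM, namely NC 1 and FGL1-OE 3, and the difference of -0.26 ± 0.53 (SE) had the largest error of the family and turned to 0.13 without NC 3 and 0.14 without FGL1-OE 3. SNRPA, which encodes the A protein of the U1 snRNP, had 23.2, 12.5 and 14.4 FPKM in NC and 16.4, 13.0 and 12.8 FPKM in FGL1-OE. NC 1 was highest, and the log2 fold change of -0.20 ± 0.24 (SE) turned to 0.05 without it. SNRPF, the gene of the SmF ring protein, had 24.1, 32.5 and 30.8 FPKM in NC and 35.9, 34.7 and 33.4 FPKM in FGL1-OE (log2 fold change 0.25 ± 0.16, SE; exact permutation p = 0.1). It was the member of this family whose groups did not overlap, and 6 of the 11 SNRP genes had a log2 fold change above 0 (median 0.05, range -0.26 to 0.25).

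All 9 SF3 genes had a log2 fold change above 0, with a median of 0.10 and a range from 0.04 to 0.47, and 0 of them passed the test. SF3B6, whose protein sits at the branch point adenosine, was the most abundant of them, with 83.4, 214.2 and 175.2 FPKM in NC and 206.8, 204.2 and 199.1 FPKM in FGL1-OE. NC 1 was far below the other libraries while NC 2 was above all of them, and the log2 fold change of 0.47 ± 0.33 (SE), the largest positive difference among the 59 genes, was 0.07 without NC 1 and 0.75 without NC 2. SF3B4, a subunit that contacts pre-mRNA near the branch point, had 34.8, 72.4 and 51.5 FPKM in NC and 64.7, 56.2 and 63.9 FPKM in FGL1-OE. Here too NC 1 was lowest and NC 2 highest, and the difference was 0.27 ± 0.26 (SE) with all libraries, 0.01 without NC 1 and 0.53 without NC 2. SF3B3, a scaffold of the SF3B complex, had 14.0, 14.0 and 16.5 FPKM in NC and 18.7, 16.9 and 18.0 FPKM in FGL1-OE (log2 fold change 0.26 ± 0.15, SE; unadjusted limma p = 0.115, exact permutation p = 0.1). SF3A3 had 40.7, 42.4 and 47.1 FPKM in NC and 47.6, 48.7 and 50.4 FPKM in FGL1-OE. In SF3B3 and SF3A3 all FGL1-OE libraries lay above all NC libraries, NC 3 being the nearest control in both. SF3B1, the subunit that is often mutated in leukaemias, had 15.1, 37.6 and 23.4 FPKM in NC and 20.2, 27.0 and 26.5 FPKM in FGL1-OE, all within the control range. The family summed to 330, 504 and 454 FPKM in NC 1 to NC 3 and to 512, 488 and 492 FPKM in FGL1-OE, with NC 1 lowest.

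U2AF2, which binds the polypyrimidine tract, was the most abundant U2AF gene in the gene table, with 72.3, 40.8 and 62.6 FPKM in NC and 67.0, 57.3 and 61.5 FPKM in FGL1-OE. The FGL1-OE libraries were all inside the control range, and the log2 fold change of 0.11 ± 0.23 (SE) turned to -0.12 without NC 2. U2AF1, whose protein contacts the AG at the end of the intron, had 10.2, 12.4 and 13.8 FPKM in NC and 15.8, 15.4 and 15.3 FPKM in FGL1-OE. The groups did not overlap, and the log2 fold change of 0.34 ± 0.16 (SE) came with an unadjusted limma p of 0.065 and an adjusted p of 1.0. U2AF1L5 had 4.21, 1.11 and 2.37 FPKM in NC and 1.73, 0.728 and 0.751 FPKM in FGL1-OE. NC 1 was highest and the groups overlapped (log2 fold change -0.72 ± 0.34, SE; unadjusted limma p = 0.070, exact permutation p = 0.2). This value was -0.40 without NC 1 and -1.11 with a pseudocount of 0.1, and the unadjusted limma p was 0.043 without FGL1-OE 1 and 0.0052 without NC 2.

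U2AF1L5 is a second copy of U2AF1 in newer annotation, and the gene table gives both the same place on GRCh37, from 44513066 to 44527697 on chromosome 21 for U2AF1 and to 44527693 for U2AF1L5. In GENCODE v29 all of the 31-base words of the leading U2AF1L5 transcript (100%) and 96.9% of those of the leading U2AF1 transcript also occurred in another gene, so how reads were divided between the copies cannot be seen in these tables, and the values of both are uncertain. The transcripts of U2AF1L5 took 18.1% of the summed transcript FPKM of both genes in NC 1 but between 0.904% and 2.75% in the other 5 libraries. The gene and transcript tables also differed in scale. The transcripts of U2AF1 summed to between 109.1 and 179.8 FPKM, 9.89 to 11.4 times its gene value, while those of U2AF2 summed to 1.37 to 1.41 times. The order of U2AF1 and U2AF2 is therefore not the same in the transcript table. This was not particular to U2AF1. Over the libraries the sum was 3.77 to 6.96 times the gene value for HNRNPD and 0.30 to 0.91 times for SRSF7. For U2AF1L4 it was 0.02 to 0.35 times, and for HNRNPA0 it was 1.0.

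U2AF1 transcripts use 1 of 2 versions of exon 3, each 67 bases long, that lie one after the other in the gene. The upstream version is held by ENST00000380276 and the downstream version by ENST00000291552. Both are printed as spliced sequence because the transcripts can be told apart in this exon, with the exon in capitals and 15 bases of the neighbouring exons in lower case; the sequences and coordinates come from GENCODE v29 on GRCh38, minus strand. The upstream exon lies at chr21:43101366-43101432 and the downstream exon at chr21:43100453-43100519.
U2AF1 upstream exon 3: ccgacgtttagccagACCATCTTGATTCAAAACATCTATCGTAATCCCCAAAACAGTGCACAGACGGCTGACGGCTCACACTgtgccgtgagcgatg
U2AF1 downstream exon 3: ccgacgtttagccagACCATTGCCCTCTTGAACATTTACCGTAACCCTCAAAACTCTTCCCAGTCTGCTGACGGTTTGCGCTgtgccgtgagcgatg
The versions were identical at 44 of 67 positions (65.7%), whereas each was identical at all 67 positions to the same exon of U2AF1L5. ENST00000380276 had 0.120, 25.6 and 19.2 FPKM in NC and 31.4, 27.0 and 28.1 FPKM in FGL1-OE. NC 1 was almost without it and the groups did not overlap (exact permutation p = 0.1; limma p = 0.174, unadjusted). Within U2AF1, transcripts with the upstream exon made up 0.11%, 18.8% and 12.5% in NC and 17.4%, 17.8% and 18.1% in FGL1-OE. The transcripts of U2AF1L5 with the same exons were then added (ENST00000639996, which holds both exons, was counted for each). The shares were then 8.11%, 19.7% and 14.8% in NC and 19.0%, 18.8% and 18.6% in FGL1-OE, so NC 1 lay less far below the others. NC 2 lay above every FGL1-OE library both with and without the U2AF1L5 transcripts (exact permutation p = 0.4 in each case).

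The hnRNP genes were led by HNRNPA2B1, an RNA-binding protein of many nuclear and cytoplasmic roles, with 163.0, 126.8 and 139.8 FPKM in NC and 108.9, 136.2 and 124.7 FPKM in FGL1-OE. Its groups overlapped, since FGL1-OE 2 exceeded NC 2 (log2 fold change -0.21 ± 0.17, SE; exact permutation p = 0.2), and the difference was -0.12 without NC 1 and -0.13 without FGL1-OE 1. HNRNPF, which binds G-rich tracts, had 76.4, 85.2 and 105.1 FPKM in NC and 100.3, 112.6 and 111.6 FPKM in FGL1-OE. Only NC 3 reached the FGL1-OE range, and the difference was 0.29 ± 0.17 (SE), the largest positive of the family, and 0.19 without NC 1. Its paralogue HNRNPH2 had 73.6, 79.7 and 68.5 FPKM in NC and 55.2, 69.7 and 67.7 FPKM in FGL1-OE. FGL1-OE 1 was lowest and FGL1-OE 2 lay above NC 3, for a difference of -0.21 ± 0.16 (SE), which was -0.10 without FGL1-OE 1. HNRNPA0 had 39.1, 18.1 and 25.5 FPKM in NC and 23.2, 23.2 and 22.3 FPKM in FGL1-OE, with NC 1 highest and NC 2 lowest of all 6. Its difference of -0.19 ± 0.26 (SE) turned to 0.09 without NC 1 and was -0.45 without NC 2. HNRNPL and HNRNPUL1, whose groups did not overlap, had 39.4, 41.9 and 40.8 FPKM and 66.0, 64.3 and 67.8 FPKM in NC. The same genes had 45.5, 42.5 and 44.9 FPKM and 71.8, 70.2 and 69.5 FPKM in FGL1-OE, which puts the differences at 0.12 ± 0.13 and 0.09 ± 0.13 (SE). In both the nearest libraries of the groups were less than 2 FPKM apart. Of the 21 HNRNP genes 12 had a log2 fold change above 0, with a median of 0.07 and a range from -0.21 to 0.29. The other hnRNP genes not described here, such as HNRNPK, HNRNPC and HNRNPU, lay within that range and their groups overlapped.

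HNRNPA1L2, an intronless copy of HNRNPA1 whose transcript shared 76.4% of its 31-base words with another gene, had 0.965, 8.85 and 10.1 FPKM in NC and 1.02, 12.6 and 10.1 FPKM in FGL1-OE. The library numbered 1 of each group was near 1 FPKM and the other 4 were near 10 FPKM. HNRNPA1 itself had 128.2, 115.3 and 116.6 FPKM in NC and 103.8, 121.8 and 114.6 FPKM in FGL1-OE, with no such step. Of the 59 leading transcripts 9 shared more than 50% of their words with another annotated gene, among them those of HNRNPC, HNRNPL, SRSF1 and SNRPA1, and their values are uncertain for that reason.

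PTBP1, a repressor of many alternative exons, had 31.8, 29.3 and 34.5 FPKM in NC and 40.7, 25.2 and 38.2 FPKM in FGL1-OE. FGL1-OE held both the highest and the lowest library, and the difference was 0.09 ± 0.21 (SE), which turned to -0.03 without FGL1-OE 1 and with sums of the transcript table. PTBP2, the neuronal paralogue, was close to the filter, at 0.182, 1.39 and 0.268 FPKM in NC and 0.952, 0.989 and 0.294 FPKM in FGL1-OE. PTBP3 had 10.8, 35.8 and 14.4 FPKM in NC and 15.1, 17.8 and 21.9 FPKM in FGL1-OE. NC 2 was highest in both.

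**Figure D2:**
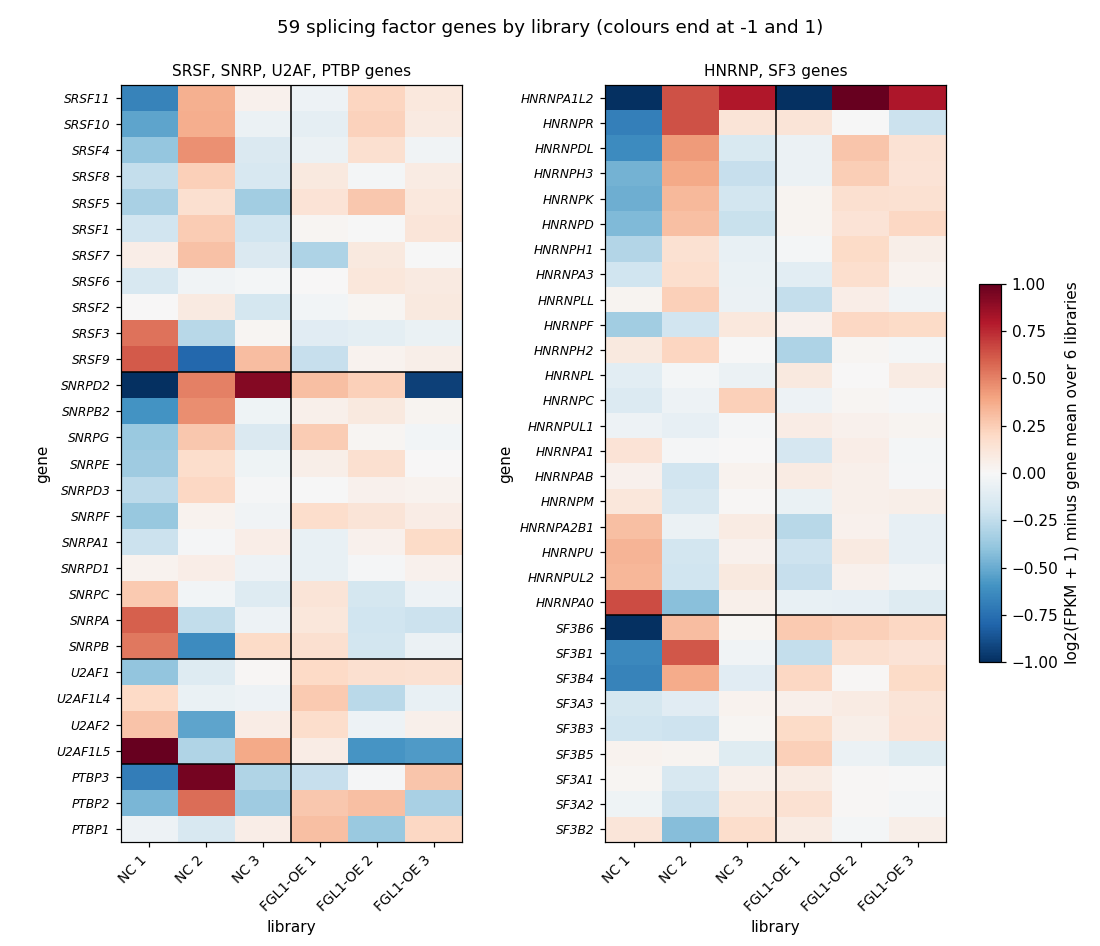
Deviation of log2(FPKM + 1) from the mean over the 6 libraries (colour, ending at -1 and 1) for the 59 member genes (rows) in each library (columns), ordered within each family by NC 2 minus NC 1. NC 1 and NC 2 carry the strongest colours and often opposite ones, while the FGL1-OE columns are mostly pale, apart from HNRNPA1L2 in all 3 FGL1-OE libraries, SNRPD2 in FGL1-OE 3 and U2AF1L5 in FGL1-OE 2 and FGL1-OE 3.

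The widest contrast among the members was therefore within the controls. NC 1 and NC 2 differed by more than 1.5 times in 24 of 59 members (40.7%), against 59.3% of all genes, and by more than 2 times in 16, while the FGL1-OE libraries differed from each other by more than 1.5 times in 6. The SD of log2(FPKM + 1) over the NC libraries was larger than that over the FGL1-OE libraries in 52 members (88.1%), with medians of 0.26 and 0.11, and in 84.1% of all genes, with medians of 0.31 and 0.12. NC 1 was the lowest of the 6 libraries for 30 members (50.8%), against 41.3% of all genes. NC 2 was the highest for 23 members (39.0%), against 35.9% of all genes. In the other direction, NC 1 was the highest for 13 members and NC 2 the lowest for 13. In 29 members (49.2%) every FGL1-OE library lay inside the range of the controls, as in 57.0% of all genes.

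The direction of the contrast between NC 1 and NC 2 went with base composition. The 37 members that were higher in NC 2 had a median GC content of 42.7% in their most abundant transcript, and the 22 members that were higher in NC 1 had 53.9%. Over the 59 members the difference NC 2 minus NC 1 had a Spearman correlation of -0.474 with GC content (Pearson -0.417), and over 11770 genes of the table the same correlation was -0.788. The points share both libraries and are not independent. The trend was not particular to this pair of controls. For FGL1-OE 2 minus FGL1-OE 1 the Spearman correlation was -0.565 over the members and -0.545 over all genes. For FGL1-OE 3 minus FGL1-OE 1 it was -0.39 and -0.447, and for NC 3 minus NC 1 it was -0.291 and -0.602. For the difference between the groups the Spearman correlation with GC content was -0.162 over the members and -0.328 over all genes. Whether GC content has a part in the differences of single members was not tested.

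**Figure D3:**
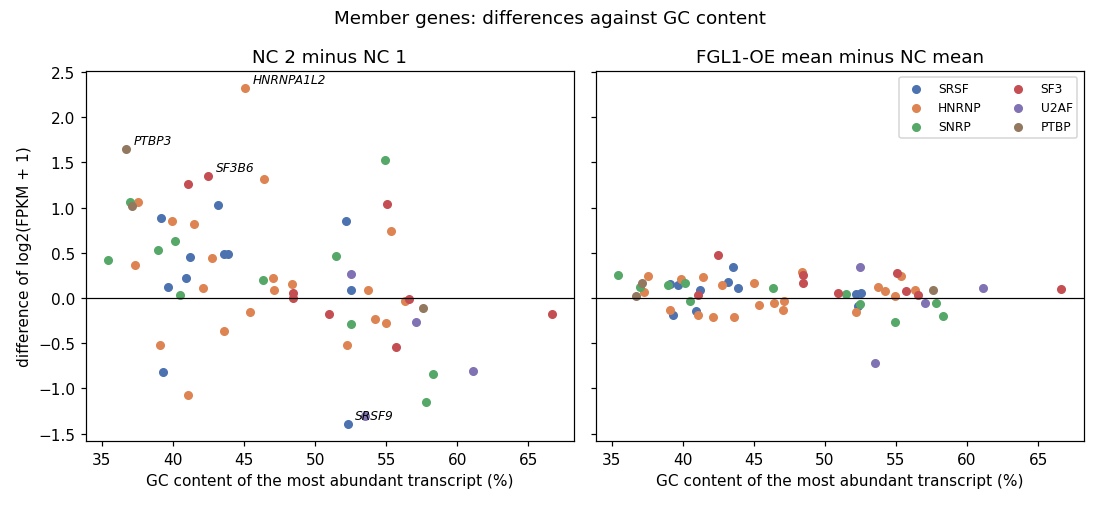
Difference of log2(FPKM + 1) for NC 2 minus NC 1 (left) and for the FGL1-OE mean minus the NC mean (right) against the GC content in % of each member gene's most abundant transcript, coloured by family. The left panel spreads over more than 3 log2 units and slopes downwards (Spearman -0.474), and the right panel stays within 0.5 of 0 for all but U2AF1L5.

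At the level of transcripts, 225 of the 236 listed passed the filter and 0 had an adjusted p under 0.05 in limma (background 0.0165% of 30330 transcripts). At an unadjusted p under 0.05 in limma 8 were called (3.56%), 5 higher (background 2.05%) and 3 lower in FGL1-OE (background 1.48%), against 3.53% of all transcripts in either direction. The groups did not overlap in 11 transcripts higher in FGL1-OE (4.89%, background 4.65%) and in 8 lower (3.56%, background 3.57%), together 8.44% against 8.22%. These shares were close to those of the whole table. In simulated transcripts 0% of those changed by 2 on the log2 scale were recovered. Without NC 2 the unadjusted count was 34 (15.1%) against 9.03% of all transcripts, and adjusted calls numbered 0.

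Of the 59 genes 11 had 1 listed transcript and 48 had more, up to 17 for HNRNPC. The most abundant transcript was the same in all 6 libraries in 28 of the 48 genes and differed among libraries in 20. In 17 genes it differed among the NC libraries and in 11 among the FGL1-OE libraries, and in 0 genes was it the same within each group and different between them. The share of the leading transcript moved by a median of 17.5 percentage points over the libraries. Transcripts of the same gene are hard to tell apart, since a median of 2.76% of a transcript's 31-base words occurred in no other transcript of its gene and 70 transcripts had no word of their own.

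HNRNPDL, an hnRNP D-like protein gene at 83343717 to 83351561 on chromosome 4 (GRCh37), was a gene in which transcript shares differed between the groups. Its ENST00000621267 had 6.86, 6.73 and 8.86 FPKM in NC and 13.6, 10.9 and 15.03 FPKM in FGL1-OE. All FGL1-OE libraries were higher (log2 fold change 0.74 ± 0.25, SE; unadjusted limma p = 0.023, adjusted p = 1.0, exact permutation p = 0.1). This transcript was named because of that order and p, which are therefore no separate evidence. ENST00000614627 differs from it by lacking exon 6, which encodes a stretch rich in glycine and tyrosine. Exon 6 has 171 bases, lies at chr4:82426463-82426633 on the minus strand of GRCh38 (GENCODE v29), and is shown in capitals because it is the whole difference between these transcripts.
HNRNPDL exon 6: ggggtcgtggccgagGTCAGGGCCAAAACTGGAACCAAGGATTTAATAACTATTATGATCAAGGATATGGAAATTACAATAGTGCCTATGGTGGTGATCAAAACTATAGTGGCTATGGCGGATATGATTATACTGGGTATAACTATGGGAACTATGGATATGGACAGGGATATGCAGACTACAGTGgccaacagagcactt
ENST00000614627 had 9.45, 8.98 and 12.3 FPKM in NC and 12.4, 7.54 and 13.0 FPKM in FGL1-OE, with full overlap. Of the FPKM of this pair, the transcript with exon 6 held 42.1%, 42.8% and 41.9% in NC and 52.3%, 59.1% and 53.6% in FGL1-OE. The share was thus 12.8 points higher in FGL1-OE, with SDs of 0.503 and 3.61 points (exact permutation p = 0.1; the pair was chosen after its values were seen). The leading transcript ENST00000507721, which also holds exon 6, took a smaller share in FGL1-OE, with 61.8%, 63.4% and 65.7% of the gene's FPKM in NC and 51.1%, 47.7% and 53.9% in FGL1-OE. Over all 6 listed transcripts, those with exon 6 took 83.2 ± 7.12% in NC and 85.7 ± 5.50% in FGL1-OE (SD, n = 3 each; exact permutation p = 0.5). The groups overlapped in this sum.

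SNRPG, the gene of the SmG ring protein at 70508494 to 70520903 on chromosome 2 (GRCh37), showed a lower level of a minor transcript. ENST00000454893 carries an additional exon of 107 bases, given here in capitals as the feature that sets it apart, at chr2:70287265-70287371 on the minus strand of GRCh38 (GENCODE v29).
SNRPG additional exon: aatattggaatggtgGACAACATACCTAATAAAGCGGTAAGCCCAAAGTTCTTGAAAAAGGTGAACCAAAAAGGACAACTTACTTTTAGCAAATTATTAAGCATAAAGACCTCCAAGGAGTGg
This transcript had 12.3, 8.96 and 6.67 FPKM in NC and 3.86, 5.04 and 4.30 FPKM in FGL1-OE. All FGL1-OE libraries were lower (log2 fold change -0.90 ± 0.29, SE; unadjusted limma p = 0.018, adjusted p = 1.0, exact permutation p = 0.1). The transcript was named because of that order and p, which are therefore no separate evidence. It made up 11.5%, 4.92% and 5.06% of the gene's FPKM in NC and 2.17%, 3.33% and 2.94% in FGL1-OE, NC 1 being the highest. The main transcript ENST00000272348 had 85.8, 170.0 and 119.7 FPKM in NC and 170.5, 143.0 and 138.0 FPKM in FGL1-OE, with overlap. It held 31.4% of its words in common with another gene, and the minor transcript 33.2%.

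HNRNPD, also known as AUF1, makes proteins of different length from transcripts with or without its exons 2 and 7. ENST00000509263 had 16.9, 10.3 and 13.6 FPKM in NC and 30.7, 26.6 and 20.3 FPKM in FGL1-OE. All FGL1-OE libraries were higher (log2 fold change 0.89 ± 0.29, SE; unadjusted limma p = 0.021, adjusted p = 1.0), and its share of the gene was 9.45 ± 2.82% in NC and 18.1 ± 2.25% in FGL1-OE (SD, n = 3 each; exact permutation p = 0.1). ENST00000509263 too was named because of its order of libraries and its limma p. The gene's other abundant transcripts moved between libraries of the same group. ENST00000507010 held 61.7%, 17.5% and 53.7% in NC and 27.1%, 34.6% and 1.28% in FGL1-OE. In NC 2 ENST00000352301 led with 44.3% and in FGL1-OE 3 ENST00000353341 led with 49.4%. Exon 2 is printed as the 57 bases in capitals, from chr4:82371528-82371584 on the minus strand of GRCh38 (GENCODE v29), since of exons 2 and 7 it differed more between the control libraries.
HNRNPD exon 2: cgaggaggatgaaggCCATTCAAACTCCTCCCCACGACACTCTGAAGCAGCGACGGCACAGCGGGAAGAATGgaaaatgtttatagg
Transcripts with exon 2 took 89.9%, 54.6% and 83.6% in NC and 74.0%, 78.3% and 81.6% in FGL1-OE. Among transcripts that span it, those with the 147-base exon 7 took 42.7%, 63.5% and 48.5% in NC and 54.1%, 48.1% and 38.2% in FGL1-OE. In PTBP1, 4 transcripts with the 78-base exon 9 were set against 3 that span it without holding it, out of 10 listed. Of the FPKM of these transcripts alone, those with exon 9 took 82.3%, 92.2% and 90.3% in NC. In FGL1-OE they took 90.1%, 80.2% and 92.1%. These are not shares of the whole gene. The groups overlapped for all 3 exons.

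**Figure D4:**
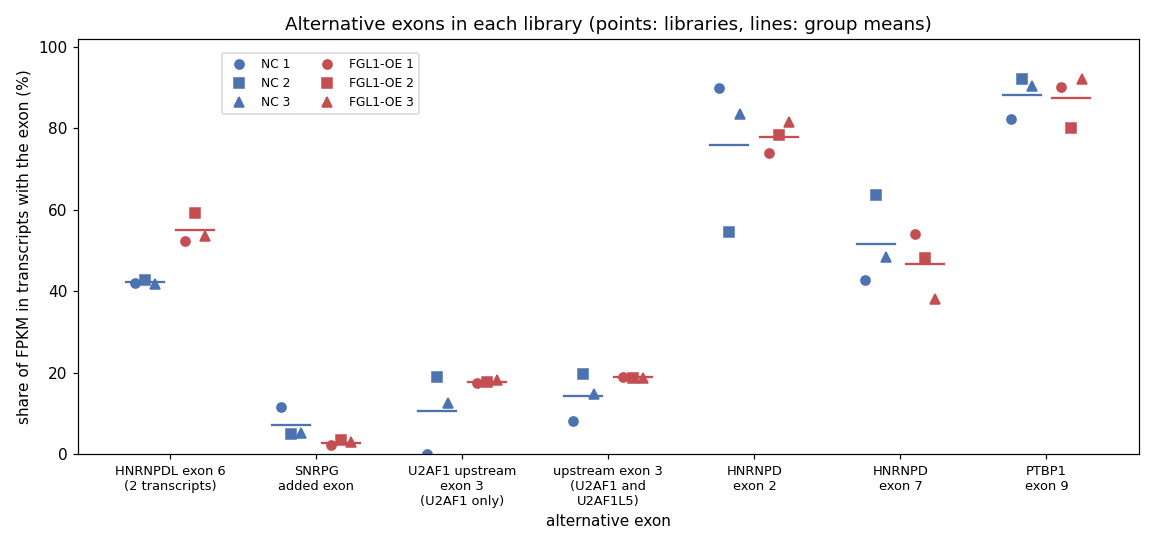
Share of FPKM (%) in transcripts that hold each alternative exon, among the transcripts compared for that exon, for the 3 NC (blue) and 3 FGL1-OE (red) libraries. Circles, squares and triangles are libraries 1, 2 and 3, and lines are group means. The HNRNPDL pair and the additional SNRPG exon are the 2 in which the groups do not overlap, and for the U2AF1 exon NC 1 lies near 0 until the U2AF1L5 transcripts are added.

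The other transcripts named by the rule were minor or unstable. HNRNPL ENST00000600233 had 0.851, 1.43 and 1.94 FPKM in NC and 3.63, 3.13 and 2.83 FPKM in FGL1-OE (log2 fold change 0.82 ± 0.27, SE), beside ENST00000600873 with 88.2% and 90.1% of the gene on average. SNRPD3 ENST00000402849 had 1.29, 0.893 and 1.71 FPKM in NC and 0.462, 0.219 and 0.255 FPKM in FGL1-OE (log2 fold change -0.80 ± 0.25, SE), at most 1.00% of a gene carried by ENST00000215829. HNRNPH1 ENST00000510411 had 8.58, 2.27 and 1.76 FPKM in NC and 0.480, 0.0525 and 1.31 FPKM in FGL1-OE (log2 fold change -1.53 ± 0.56, SE; -0.97 without NC 1 and -2.76 with a pseudocount of 0.1). All 3 had groups that did not overlap, as the rule asked, and an adjusted p of 1.0 in limma. In HNRNPH1 the leading transcript differed among the NC libraries, while ENST00000329433 led in NC 2 and in every FGL1-OE library. It held 3.38%, 62.7% and 12.1% in NC and 48.1%, 40.5% and 61.9% in FGL1-OE. ENST00000519033 held 19.7%, 0.111% and 35.2% in NC and 28.2%, 29.98% and 0.355% in FGL1-OE, so FGL1-OE 3 resembled NC 2 in it and FGL1-OE 1 and FGL1-OE 2 resembled NC 3.

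HNRNPUL1, at 41768401 to 41813503 on chromosome 19 (GRCh37), was a gene in which libraries of a group went apart, and was chosen after its values were seen. Its gene level stayed between 64.3 and 71.8 FPKM in all libraries. ENST00000595018 had 1.63, 3.02 and 4.21 FPKM in NC and 50.4, 53.7 and 2.87 FPKM in FGL1-OE. ENST00000263367 had 1.96, 2.68 and 4.57 FPKM in NC and 27.2, 29.01 and 3.54 FPKM in FGL1-OE. FGL1-OE 1 and FGL1-OE 2 were therefore high in both and FGL1-OE 3 lay with the controls. ENST00000593587 did the reverse, with 30.1, 66.4 and 44.6 FPKM in NC and 0.0533, 0 and 65.3 FPKM in FGL1-OE. ENST00000595018 had 0% of 31-base words of its own and ENST00000593587 had 2.12%. Both transcripts that were high had an unadjusted limma p under 0.05 (0.050 and 0.040) although the groups overlapped.

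**Figure D5:**
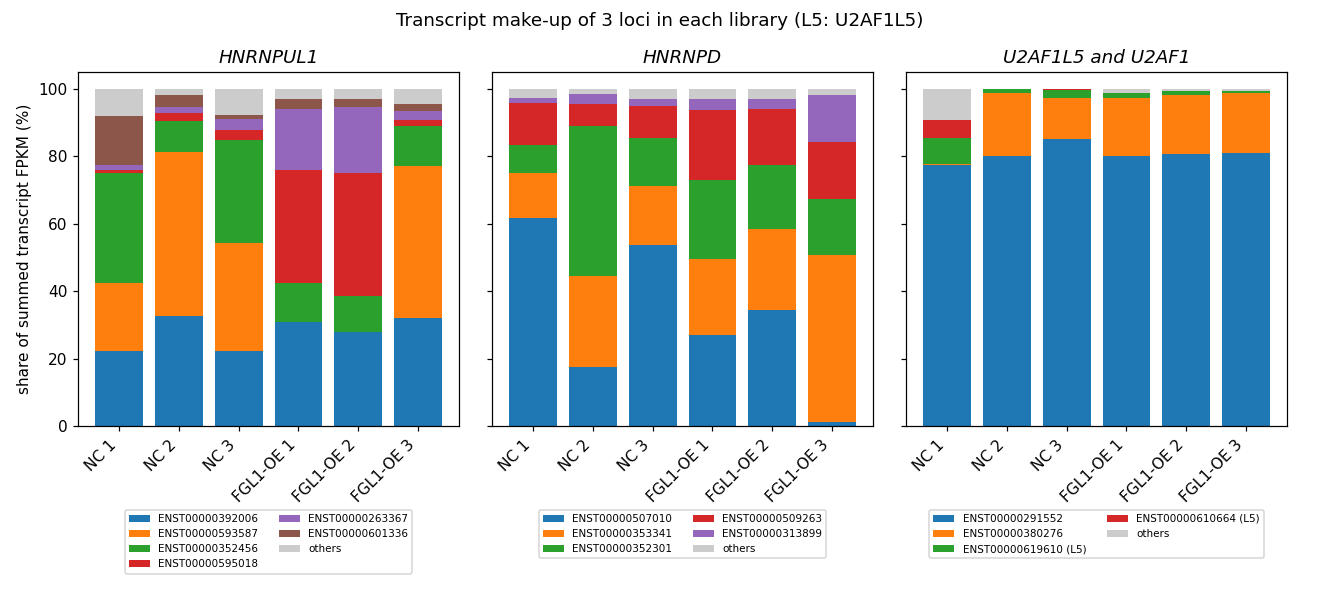
Share of the summed transcript FPKM (%) held by each transcript in each library for HNRNPUL1, HNRNPD and the pair U2AF1 and U2AF1L5; transcripts that never reach 5% are drawn in grey as others. In HNRNPUL1 the red and violet transcripts are large in FGL1-OE 1 and FGL1-OE 2 and small in the other 4 libraries, and in HNRNPD the leading transcript differs within both groups.

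Other genes of the splicing machinery were counted from lists of 119 names, of which 117 were listed and all of these were tested. Their log2 fold change was above 0 in 90, against 53.7% of all genes, with a median of 0.07, and 0 had an adjusted p under 0.05 in limma. All 8 genes of the LSM ring, whose nuclear form binds the U6 RNA, were above 0 with a median of 0.19. By contrast, 4 of 11 genes of the U1, U11 and U12 particles were above 0 with a median of -0.12. These were the extremes, and the other lists lay between them. They ran from 14 of 22 genes above 0 for the PRP19 complex and catalytic steps to 13 of 14 for U2 associated genes. At an unadjusted limma p under 0.05, 0 genes were higher (background 1.21%) and 3 were lower in FGL1-OE (background 0.807%). The count was 0 when any FGL1-OE library was left out and 17 without NC 2, when 21.8% of all genes were called. LUC7L3, a U1-associated protein gene, had 23.2, 18.9 and 16.7 FPKM in NC and 10.8, 15.2 and 15.1 FPKM in FGL1-OE (log2 fold change -0.49 ± 0.20, SE). CLK1, a kinase that phosphorylates SR proteins, had 3.58, 6.19 and 3.82 FPKM in NC and 2.09, 2.97 and 3.02 FPKM in FGL1-OE (log2 fold change -0.56 ± 0.22, SE). QKI, an RNA-binding regulator of alternative exons, had 1.80, 3.78 and 0.753 FPKM in NC and 0.610, 0.607 and 0.653 FPKM in FGL1-OE (log2 fold change -0.82 ± 0.33, SE). In all 3 every FGL1-OE library lay below every NC library, and each had an adjusted p of 1.0 in limma.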

How the data were processed

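RNA of TE1 cells was enriched with oligo(dT) beads and sequenced on an Illumina NovaSeq (3 NC and 3 FGL1-OE libraries). The authors deposited FPKM values per library for genes and transcripts; the submitters' processing notes name GRCh37 and StringTie, and the aligner and versions are not given in the sources used here. Deposited columns of the authors' own comparison (fold changes, p-values and q-values) were not used. Features averaging 0.5 FPKM or more were fitted with limma 3.58.1 (R 4.3.3) on log2(FPKM + 1), a pseudocount of 1 that understates changes of low genes, without covariates, with Benjamini-Hochberg adjustment per table and a threshold of 0.05. Shares, and single features, had exact two-sided permutation tests (smallest p 0.1). Because the values are not counts, no intervals from counting are given. Sequence, length and GC content came from GENCODE v29 (GRCh38), matched by identifier for all 236 transcripts. Genes named with values were FGL1, the most abundant member per family, the 6 largest rises and falls, non-overlapping transcripts with an unadjusted p under 0.05 and, of the same genes, transcripts of at least 10% share; others were picked once their values had been seen. The members and lists were chosen with earlier results of these data known. Simulated tables with 200 altered features were used to check the fits. Alternatives were a pseudocount of 0.1, other filters, scaling to a common sum, quantile normalization, a replicate block, an ordinary linear model, sums of transcripts and leaving out each library.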

Additional observations from a re-analysis of the deposited data

How the results depend on the processing

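Adjusted calls among members numbered 0 under every alternative run. At an unadjusted p under 0.05, the count of member genes was 1 with the replicate block (U2AF1L5, lower; 2.48% of all genes), 4 with an ordinary linear model (3.11% of all genes) and 1 with sums of the transcript table (SRSF7, higher; 2.78% of all genes), and 0 to 11 without a library. The 11 were called without NC 2, 18.6% of members against 21.8% of all genes. The count of member transcripts ran from 4 without FGL1-OE 1 (1.78%, against 3.12% of all transcripts) to 34 without NC 2 (15.1%, against 9.03%). That of the other splicing genes was 0 to 17 without a library, the 17 without NC 2, when 21.8% of all genes were called. Whether the replicate numbers pair the libraries is not known. Over genes the correlation of deviations was 0.345, 0.282 and -0.061 for same-numbered libraries 1, 2 and 3. For libraries of different numbers it lay between -0.37 and 0.136. The block called 7 member transcripts (3.11%) at an unadjusted limma p under 0.05, against 3.47% of all transcripts. Without the block 8 were called (3.56%), against 3.53% of all transcripts. With the block, U2AF1L5 had an unadjusted limma p of 0.0081, against 0.070 without it. Counts of members whose groups do not overlap were added after the data were seen. For genes they were 8 without NC 1 or FGL1-OE 3 and up to 32 without NC 2. Of all genes, 14.1% did not overlap without NC 1 and 42.8% without NC 2. Without FGL1-OE 3, 5.58% of all genes were higher and 4.89% lower. For transcripts the counts ran from 32 without FGL1-OE 1 (15.6% of all transcripts) to 85 without NC 2 (30.7%). Leaving out a library can only keep or raise such counts. The median log2 fold change of members lay between 0.03 and 0.14 without a library. Signs turned for PTBP1 (-0.027), SNRPB (0.26) and SRSF9 (0.012) with sums of the transcript table and for SNRPB (0.000238) with quantile normalization. Without a library, log2 fold changes crossed 0 for HNRNPA0 (-0.45 to 0.086), PTBP1 (-0.033 to 0.30), SNRPA (-0.37 to 0.051), SNRPB (-0.39 to 0.19), SNRPD2 (-0.84 to 0.14), SRSF9 (-0.50 to 0.19) and U2AF2 (-0.12 to 0.28). The causes were not tested.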
